A study of Mus musculus with 72 samples.

Results

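Blood RNA of 6 mice killed 7 days after 4 Gy of x-rays was compared with that of 6 unirradiated mice killed on the same day. The 12 arrays, each holding the RNA of 1 mouse, were chosen by their labels alone (X-ray_4Gy_day7 and Control_day7) out of 72 arrays in the series, which also covers neutrons, 1 Gy of x-rays and earlier days. All mice were C57BL/6 males, 8 to 10 weeks old when treated. The irradiated mice received x-rays from an orthovoltage machine, and the controls were sham-irradiated in the holders of the neutron beam with the beam off. Further groups served 2 comparisons: 5 mice 7 days after 1 Gy of x-rays, and 5 mice 1 day after 4 Gy of x-rays with 5 controls of that day. Blood was drawn from the heart into a lysing RNA stabilizer and globin RNA was removed. Each value therefore sums over all cells of the blood, reticulocytes and platelets included.

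A level is given here as the log2 of the background-corrected intensity of a probe relative to the median of the detected probes of the same array, so that 0 is the array median and 1 unit is a factor of 2. Levels of different genes are not compared, since probes differ in brightness. In all, 10836 genes were tested with limma, and a gene was called when p was below 0.001 and the Benjamini-Hochberg false discovery rate (FDR) below 0.05. In the comparison with the controls 4232 genes had an FDR below 0.05. A gene given as not called can therefore have an adjusted p below 0.05. Detected genes that varied little over the arrays were left out before testing, so the counts of a list cover its tested members only. "Rose" and "fell" are used of called genes only. Between 59.3% and 67.3% of spots were well above background on the 4 Gy arrays and between 54.3% and 63.9% on the control arrays, and arrays correlated at 0.912 to 0.991 within the irradiated group and at 0.912 to 0.988 within the controls. The irradiated and the control arrays were scanned on different days and lay on different slides, so scan date and exposure cannot be told apart.

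Part of the samples held transcripts of solid tissue. The mean level of 31 hepatocyte markers was between -5.09 and -3.10 in the controls. It was -5.48, -4.49 and -4.32 in 4 Gy mice 1, 3 and 5 and 4.02, 4.73 and 6.60 in 4 Gy mice 2, 4 and 6. Of the 1 Gy mice, mice 3 and 5 also stood apart, at 2.52 and 4.31. Heart and skeletal muscle markers, 18 in number, were at 0.18 and 0.04 in control mice 2 and 5 and between -5.14 and -2.91 in all other mice of both groups. In the comparison with the controls, the numbers of genes of each list that rose or fell were therefore also computed without the 4 Gy mice with liver transcripts, and are given without them where they changed by more than 1.5 times.

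**Figure D1:**
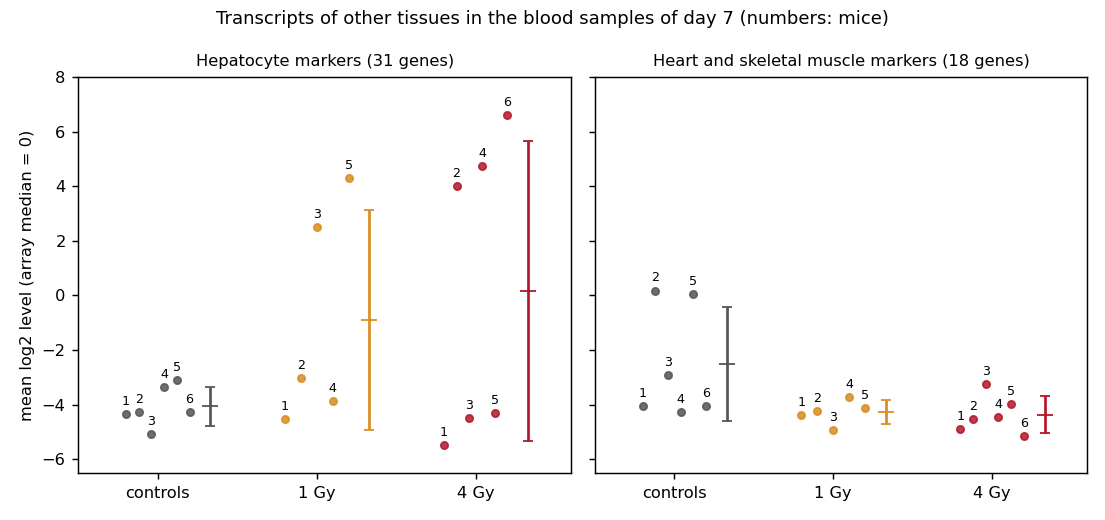
Mean log2 level of 31 hepatocyte markers (left) and of 18 heart and skeletal muscle markers (right) on each array of day 7, relative to the array median. Each numbered point is a mouse and the bars give the mean and SD of the group. 4 Gy mice 2, 4 and 6 and 1 Gy mice 3 and 5 stand at or above 2.52 in the left panel, and control mice 2 and 5 at 0.18 and 0.04 in the right.

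Blood cells differ widely in how they bear ionizing radiation. Resting lymphocytes, B cells above all, die readily after exposure, while circulating red cells outlast it and are renewed from dividing precursors in the bone marrow. Damaged DNA stabilizes the transcription factor p53, which switches on inhibitors of the cell cycle and genes of cell death. As the marrow recovers, young red cells that still carry RNA (reticulocytes) and dividing precursors appear in the circulation.

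Of the 10836 genes tested, 1896 (17.5%) were called, 980 higher (9.04%) and 916 lower (8.45%) after 4 Gy. Without regard to the test, 1957 genes (18.1%) had all irradiated mice on the same side of all controls, 1012 above (9.34%) and 945 below (8.72%). Among the called genes 123 rose and 157 fell by a factor of 4 or more. Without the 3 mice that carried liver transcripts 1017 genes were called, 590 higher and 427 lower, of which 957 were also called with all mice. Without 4 Gy mice 1, 3 and 5 instead, 1312 genes were called, 720 higher and 592 lower. Either omission leaves 3 irradiated mice, and the part of this smaller group in the counts without some mice was not tested. The split depended on the centring: with the spike-in controls as reference, 1092 genes rose and 342 fell, and the median log2 fold change of all genes was 0.23 in place of -0.04. Background correction by normexp gave 350 calls, 133 higher and 217 lower. It added an offset of 50, which lies in the range of the median intensities of these arrays.

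B cell transcripts fell together. Of 13 tested genes of the B cell receptor and its signalling, 11 fell and none rose, with a median log2 fold change of -2.42 against -0.04 over all genes. In whole blood, fewer cells of a type and less RNA per cell cannot be told apart, and blood cell counts were not analysed here. Cd79a encodes a signalling chain of the B cell receptor. Its level was 1.53 to 2.48 after 4 Gy (median 1.97) and 4.95 to 5.82 in the controls (median 5.16). The groups did not overlap, and the log2 fold change was -3.29 (SE 0.22, adjusted p = 2.77e-07). Its partner chain Cd79b fell by 2.82 and the adaptor Blnk by 3.03. Ms4a1, which encodes the surface protein CD20, ranged from 2.47 to 2.94 (median 2.73) after 4 Gy and from 4.89 to 5.27 (median 5.18) in the controls, with a log2 fold change of -2.42 ± 0.14 (SE, limma adjusted p = 7.68e-08). The complement receptor gene Cr2 changed more, from 2.45 to 3.04 in the controls (median 2.68) to between -1.74 and -1.08 (median -1.13), with a log2 fold change of -4.00 ± 0.17 (SE, limma adjusted p = 9.15e-09). For Cd79a, Ms4a1 and Cr2 the lowest control lay above the highest irradiated mouse. The kinase genes Blk and Btk fell by 2.58 and 0.97, and the inhibitory receptor gene Cd22 by 1.31. The kinase genes Syk and Lyn, which myeloid cells also express, were at -0.94 (called) and at -0.58 (adjusted p = 0.0701, not called).

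**Figure D2:**
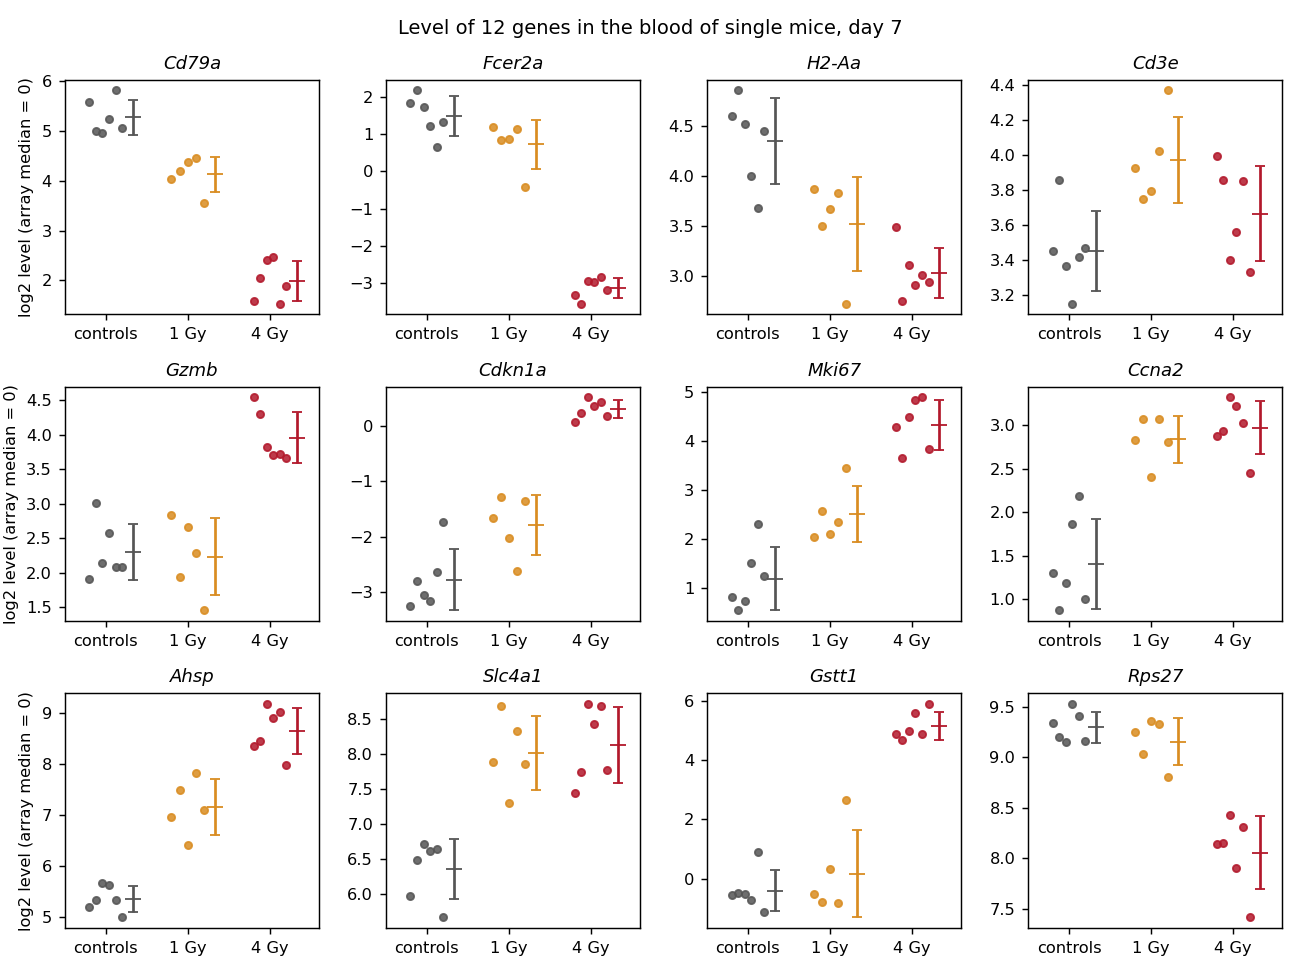
Log2 level of 12 genes relative to the array median in the blood of single mice at day 7, by group (controls and 4 Gy, 6 mice each; 1 Gy, 5 mice). Points are mice, and bars give the mean and SD; the vertical scale differs between panels. Cd79a and Fcer2a are lower in every 4 Gy mouse than in any other mouse, Cdkn1a, Gzmb, Ahsp, Gstt1 and Mki67 are higher, and Cd3e overlaps between 4 Gy mice and controls.

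Of 19 genes of the mature B cell surface and its transcription factors, 13 fell and none rose (median -1.92). Fcer2a encodes CD23, a receptor of mature follicular B cells. Its level was -3.55 to -2.84 (median -3.07) after 4 Gy and 0.65 to 2.17 (median 1.53) in the controls, without overlap. The log2 fold change of -4.62 (SE 0.24, adjusted p = 3.97e-08) was the largest of the list. Fcrl1, a receptor of the Fc receptor-like family, fell by 3.73, Tnfrsf13c, the receptor for the B cell survival factor BAFF, by 3.54, and the chemokine receptor Ccr6 by 3.02. Another probe of Tnfrsf13c gave -0.89. The transcription factors and cofactors Ebf1, Bcl11a, Spib and Pou2af1 fell by 2.85, 2.84, 2.63 and 2.59, Cxcr5, the receptor that leads B cells into follicles, by 2.52, and the signalling scaffold Bank1 by 1.92. Vpreb3, a gene of the B cell lineage, fell by 4.87 (SE 0.17, adjusted p = 4.25e-09), the smallest p of all genes tested. It belongs to no list and was among the 15 largest falls. Members of the list that other blood cells share showed less. Cd24a, which erythroid cells also carry, was at 0.16 (adjusted p = 0.571), Cd81 at -0.52 (adjusted p = 0.111) and Cd37 at -0.81 (adjusted p = 0.00596), and none of them was called. Without the 3 mice with liver transcripts, 9 of the 13 receptor genes and 13 of the 19 mature B cell genes fell, with medians of -2.39 and -1.98.

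Genes of MHC class II, which present peptides to helper T cells and are expressed by B cells, monocytes and dendritic cells, fell in 9 of 10 cases (median -1.48). The members differed in depth. H2-Ob and H2-Oa, which encode the chains of the B cell-restricted modulator H2-O, fell by 3.85 and 2.70, and H2-DMb2 by 2.56. The classical chains fell less: H2-Eb1 by 1.63, H2-Aa by 1.32 and H2-Ab1 by 1.15. H2-Aa had levels of 2.74 to 3.48 (median 2.97) after 4 Gy and of 3.67 to 4.85 (median 4.48) in the controls (SE 0.21, adjusted p = 0.000433). Cd74, the invariant chain that accompanies class II through the cell, had levels of 4.49 to 4.98 (median 4.84) and of 5.26 to 6.03 (median 5.81), with a log2 fold change of -0.98 ± 0.17 (SE, limma adjusted p = 0.000705). Neither gene overlapped between the groups. Ciita, the master activator of class II transcription, fell by 1.76, H2-DMb1 by 0.96, and H2-DMa was at -0.81 (adjusted p = 0.00882, not called). H2-Eb2, a class II gene outside the list, was among the 15 largest falls of all genes at -4.08. Without the mice with liver transcripts 5 of the 10 genes fell (median -1.22), and H2-Aa, H2-Ab1, Cd74 and H2-DMb1 were no longer called, at -1.15, -0.91, -0.85 and -0.75. With spike-in centring 5 of 10 fell as well. Of the genes of MHC class I presentation, 2 of 4 rose, the chaperones Pdia3 at 1.23 and Calr at 1.11, and B2m, the common light chain of class I, was at 0.03. Of 19 listed genes 18 were detected, and most of these varied too little over the arrays to be tested. Among the untested, the mean level of H2-K1 was 7.70 after 4 Gy and 7.83 in the controls, and that of Tap2 3.33 and 2.99.

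Promoters of class II genes hold a set of conserved boxes, of which the most proximal, the Y box, contains the letters CCAAT. The sequences just before the start of H2-Aa and H2-Eb1 are shown because these genes fell together with Ciita. They are 200 bases of the RefSeq promoters on GRCm38.p6, 5' to 3' on the gene's strand, ending at the base before the start, with CCAAT on either strand (CCAAT or ATTGG) in capitals. H2-Aa lies at chr17:34287824-34288023 on the minus strand and H2-Eb1 at chr17:34305667-34305866 on the plus strand.
H2-Aa: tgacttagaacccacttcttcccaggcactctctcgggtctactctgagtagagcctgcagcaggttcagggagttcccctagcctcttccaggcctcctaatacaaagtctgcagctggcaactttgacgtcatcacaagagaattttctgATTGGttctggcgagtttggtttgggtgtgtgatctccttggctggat
H2-Eb1: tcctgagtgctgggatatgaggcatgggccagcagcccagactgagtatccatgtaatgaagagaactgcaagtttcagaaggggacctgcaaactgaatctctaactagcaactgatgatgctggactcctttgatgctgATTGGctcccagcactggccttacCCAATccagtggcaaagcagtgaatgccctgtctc
CCAAT was found within 250 bases before the start in 6 of the 7 tested class II genes with a promoter in the table (85.7%), in 1 of 8 B cell receptor genes and in 34.5% of 27025 mouse promoters of the same length.

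T cell transcripts did not move together. Of 19 genes of the T cell receptor and its coreceptors, 1 rose and 1 fell (median -0.01). Cd3e, a chain of the receptor complex that all T cells carry, ranged from 3.33 to 3.99 (median 3.70) after 4 Gy and from 3.15 to 3.86 (median 3.44) in the controls. These levels overlapped, and the log2 fold change of 0.21 (SE 0.17, adjusted p = 0.332) was not called. Cd3d was at -0.01 and Cd3g at 0.18. Cd8a, the coreceptor of cytotoxic T cells, had levels of -0.76 to 0.24 (median -0.30) and of 0.65 to 1.73 (median 0.87), without overlap, and fell by 1.29 (SE 0.24, adjusted p = 0.00117). Its partner Cd8b1 was at -0.53 and was not called (adjusted p = 0.0686). Zap70, the kinase that carries the receptor's signal and which NK cells also use, rose by 0.81. Cd4 had an uneven spread in the controls, 3.51 to 7.11 with a median of 6.66, against 3.03 to 4.83 after 4 Gy, and was not called (-2.17, SE 0.63, adjusted p = 0.0162). When the mice with liver transcripts were left out, none of the 19 genes was called, and Cd8a stood at -1.13.

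Genes of naive T cell homing and identity divided: 5 of 15 fell, 2 rose and the median was -0.40. Ccr7, the receptor that leads naive lymphocytes of both kinds into lymph nodes, had levels of 3.03 to 3.74 (median 3.62) after 4 Gy and of 4.72 to 5.16 (median 5.09) in the controls, and fell by 1.54 (SE 0.16, adjusted p = 2e-05) without overlap. Bach2, a repressor that keeps lymphocytes quiescent, fell by 2.19 and Klf2, an activator of homing genes, by 0.89. Dapl1 fell from between 2.19 and 2.92 (median 2.30) in the controls to between 0.64 and 1.27 (median 0.87). Lef1, Tcf7 and Il7r, transcription factors and the interleukin 7 receptor of naive T cells, were at -0.33, -0.17 and -0.40 and were not called. Gata3, a transcription factor of T cell development and helper type 2 cells, moved the other way. Its level was 0.87 to 1.36 (median 1.19) after 4 Gy and -0.73 to -0.04 (median -0.58) in the controls, a rise of 1.61 (SE 0.16, adjusted p = 1.3e-05). The other rise was that of Igfbp4 at 1.40. With liver-bearing mice left out 3 of the 15 fell and 1 rose (median -0.25).

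NK and cytotoxic effector genes rose in 9 of 20 cases and fell in none (median 0.77). Gzmb encodes granzyme B, a protease of the cytotoxic granule. Its level was 3.66 to 4.54 (median 3.77) after 4 Gy and 1.91 to 3.01 (median 2.11) in the controls, and it rose by 1.66 (SE 0.23, adjusted p = 0.000132) without overlap. Klrb1c, which encodes the NK1.1 antigen of C57BL/6 mice, had levels of 2.11 to 2.79 (median 2.32) and of 0.56 to 1.85 (median 1.05) and rose by 1.32 (SE 0.22, adjusted p = 0.000543). The NK receptor gene Ncr1 overlapped between the groups, with levels of 0.02 to 1.08 (median 0.84) and of -0.79 to 0.26 (median -0.44). It rose by 1.04 (SE 0.24, adjusted p = 0.00532), and its p before adjustment lay close to the limit of 0.001. Il2rb, a chain of the receptors for interleukins 2 and 15, rose by 1.42, the activating receptor Klrk1 by 1.13, the death ligand Fasl by 1.11, the granule protease Ctsw by 1.08 and the transcription factors Tbx21 and Eomes by 0.94 and 0.89. Not every granule gene moved: Prf1 (perforin) was at 0.21, Gzma (granzyme A) at -0.12 and the chemokine Ccl5 at 0.31. After removal of the mice with liver transcripts 6 genes rose (median 0.88), and without control mice 2 and 5 also 6. Removal of 4 Gy mice 1, 3 and 5 instead left 3 rises (median 0.62). With normexp none of the 20 was called.

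Of 16 chemokine receptor genes of blood leukocytes, 5 rose and 3 fell. Cxcr3, which follows interferon-induced chemokines, had levels of 2.35 to 3.70 (median 3.05) after 4 Gy and of 1.25 to 1.82 (median 1.62) in the controls, and rose by 1.47 (SE 0.22, adjusted p = 0.000233) without overlap. Cxcr6 rose by 1.77, Ccr2, the receptor of classical monocytes, by 0.96, and Cxcr2, the receptor of neutrophils, by 1.83. The falls were those of Ccr6, Cxcr5 and Ccr7, already given among the lymphocyte genes.

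Myeloid genes showed a mixed picture. Of 13 monocyte genes 6 rose and none fell (median 0.59). Cd14, a coreceptor for bacterial lipopolysaccharide, had levels of 0.17 to 0.92 (median 0.70) after 4 Gy and of -2.59 to 0.26 (median -1.64) in the controls, and rose by 2.10 (SE 0.38, adjusted p = 0.00104). The highest control overlapped with the lowest irradiated mouse. Adgre1 rose by 1.17, Fcgr4 by 0.89 and Ace by 0.70, while Csf1r, the receptor on which monocytes depend, was at -0.04 and Cx3cr1, of patrolling monocytes, at -0.98 (adjusted p = 0.00602, not called). Without the mice with liver transcripts 1 of the 13 rose, and without control mice 2 and 5 it was 2. Without 4 Gy mice 1, 3 and 5 instead, none rose and 1 fell. Of the neutrophil granule genes 2 of 10 rose. Ltf, lactoferrin of the secondary granule, had levels of -2.51 to 0.04 (median -0.53) after 4 Gy and of -4.72 to -2.17 (median -3.68) in the controls, where 4 of 6 arrays measured it above background, and rose by 2.67 (SE 0.53, adjusted p = 0.00184). Lcn2, which sequesters bacterial iron carriers, rose by 1.95. Elane, also of this list, went the other way and was not called, at a mean level of 5.23 after 4 Gy and 6.81 in the controls. Of 13 genes of mature neutrophil receptors and alarmins 3 rose and 1 fell (median 0.35). Without the mice with liver transcripts 4 of them rose and none fell, and without 4 Gy mice 1, 3 and 5 none rose and 1 fell. The alarmins S100a8 and S100a9, abundant in mature neutrophils, were at 0.35 and 0.05. Il5ra, a receptor of eosinophils, which some B cells carry too, fell by 1.77 and was the only call among 9 eosinophil and basophil genes.

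Of 22 platelet and megakaryocyte genes 1 rose and 1 fell (median 0.22). Pf4, platelet factor 4, had levels of 7.91 to 9.16 (median 8.75) after 4 Gy and of 7.44 to 9.07 (median 8.67) in the controls, with a log2 fold change of 0.15 ± 0.28 (SE, limma adjusted p = 0.697). Ppbp was at 0.23 and Itga2b at 0.45. Thbs1 rose by 1.57 and Gng11 fell by 1.65. With spike-in centring 7 of the 22 rose, and without the mice with liver transcripts none of them was called (median 0.39).

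p53 targets of arrest and feedback rose in 6 of 10 cases and fell in 1 (median 0.89). Of 19 listed genes 15 were detected, and those of them that varied too little over the arrays were not tested. Among the untested, the mean level of Mdm2 was 3.61 after 4 Gy and 3.24 in the controls, and that of Btg2 2.40 and 3.13. Cdkn1a encodes p21, the inhibitor that halts the cell cycle. Its level was 0.08 to 0.52 (median 0.30) after 4 Gy and -3.25 to -1.73 (median -2.92) in the controls, and it rose by 3.07 (SE 0.23, adjusted p = 1.07e-06) with no overlap. Phlda3, an inhibitor of the survival kinase Akt, had levels of 2.15 to 2.52 (median 2.33) and of 0.61 to 1.46 (median 1.14) and rose by 1.22 (SE 0.16, adjusted p = 0.00012). Zmat3 rose from between -2.03 and -1.58 (median -1.81) to between -0.49 and 0.07 (median -0.40). Ei24 rose by 1.08, Ccng1 by 0.90 and Plk3 by 0.88, while the stress gene Sesn1 fell by 0.71. Of 6 p53 targets of apoptosis, only Ei24, which stands in both lists, passed the test. Bax, which opens the outer membrane of mitochondria, had levels of 2.66 to 3.41 (median 3.07) after 4 Gy and of 2.16 to 2.76 (median 2.48) in the controls. These overlapped, and its log2 fold change of 0.63 (SE 0.16, adjusted p = 0.00816) was not called. Bbc3 was at 0.52 and Aen at 0.47, neither of them called. Leaving out the mice with liver transcripts, 3 of the 10 arrest targets rose, Cdkn1a at 3.11, Phlda3 at 1.19 and Zmat3 at 1.62, none fell, and none of the 6 apoptosis targets was called.

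Of 14 genes of mismatch and excision repair 2 rose and 3 fell (median -0.44), and of 11 genes of double-strand break repair and damage signalling 2 rose and none fell (median 0.10). In these lists 36 of 39 and 27 of 30 genes were detected, but most varied too little over the arrays to be tested. The exonuclease Exo1, which stands in both lists, rose by 1.01, while Parp1, a sensor of strand breaks, fell by 1.04 and the glycosylase Neil1 by 1.54. The pro-apoptotic gene Bmf, of the BCL2 family, fell by 1.46. When the mice with liver transcripts were left out, 1 gene of each repair list rose and none fell. Exo1, Parp1, Neil1 and Bmf were then at 1.07, -0.97, -1.40 and -1.03 and were not called.

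Genes of mitosis rose in 27 of 38 cases and fell in none, with a median of 1.30. Mki67, the proliferation antigen Ki-67, had levels of 3.65 to 4.90 (median 4.40) after 4 Gy and of 0.56 to 2.32 (median 1.03) in the controls, and rose by 3.14 (SE 0.31, adjusted p = 1.31e-05). Top2a, the topoisomerase that untangles chromosomes, had levels of -0.37 to 0.13 (median -0.23) and of -2.76 to -1.63 (median -2.59) and rose by 2.23 (SE 0.22, adjusted p = 1.16e-05). Ccnb2, a cyclin of mitotic entry, had levels of 3.06 to 3.58 (median 3.39) and of 0.56 to 1.40 (median 0.98) and rose by 2.38 (SE 0.18, adjusted p = 1.1e-06). None of these 3 genes overlapped between the groups. Cdca3 rose by 2.84, the kinetochore gene Spc24 by 2.39, the kinases Plk1, Cdk1 and Aurka by 2.21, 1.95 and 1.46, the spindle assembly factor Tpx2 by 2.19, Birc5, which encodes survivin, by 1.67 and Cdc20, an activator of the anaphase-promoting complex, by 1.46. The probe of Knstrn was at -1.07 and another probe of that gene at 1.04, so its direction is uncertain. With 4 Gy mice 2, 4 and 6 left out 20 of 38 rose (median 1.38), and with normexp 7. With 4 Gy mice 1, 3 and 5 left out instead, 16 rose (median 1.26).

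Genes of DNA replication and nucleotide supply rose in 10 of 30 cases and fell in 1 (median 0.44). Uhrf1, which guides DNA methylation to newly copied strands, had levels of 0.76 to 1.69 (median 1.35) after 4 Gy and of -1.55 to -0.05 (median -0.83) in the controls, and rose by 2.13 (SE 0.27, adjusted p = 7.04e-05) without overlap. The replication factor Mcm10 rose by 2.16, Mcm2 and Mcm5 of the replicative helicase by 1.46 and 1.28, the maintenance methyltransferase Dnmt1 by 1.89, the ribonucleotide reductase subunit Rrm2 by 1.77 and Tk1 by 1.27. Pold1, the catalytic subunit of polymerase delta, fell by 0.93. Rfc4 and Tyms had log2 fold changes of -3.43 and -2.77 that were not called. In the controls Rfc4 ranged from 0.85 to 6.39 and Tyms from -2.56 to 3.54. Of the 30 genes 6 rose without the mice with liver transcripts (median 0.45).

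From the genes that the study's text names, 23 were pooled here, among them E2f factors and regulators of mitosis. Part of them had been chosen on these samples, so the list is no independent evidence of its own direction. Of 21 tested members 13 rose and none fell (median 0.98). Without the 4 Gy mice with liver transcripts 12 rose (median 1.15), and without control mice 2 and 5 as well 9. With 4 Gy mice 1, 3 and 5 left out instead, 2 rose (median 0.86). E2f2, a transcription factor of S phase and of late erythroid cells, had levels of 6.43 to 7.70 (median 7.02) after 4 Gy and of 5.49 to 6.19 (median 6.09) in the controls, and rose by 1.04 (SE 0.23, adjusted p = 0.00331) without overlap. Ccna2, the cyclin of S phase and G2, had levels of 2.45 to 3.33 (median 2.98) and of 0.87 to 2.19 (median 1.24) and rose by 1.57 (SE 0.24, adjusted p = 0.000319). E2f1 and E2f8 rose by 1.19 and 0.98. Wdr26 rose by 1.97, Anln by 1.47, Slc25a51 by 1.33, Mtmr3 by 1.24, Fzr1 by 1.20, Mta3 by 1.01, Mns1 by 0.98, Ncapd2 by 0.97 and Smc2 by 0.85. Eif5 (1.04, adjusted p = 0.00626), Anp32e (0.95, adjusted p = 0.00645), Bsdc1 (0.93, adjusted p = 0.00945), Ube2c (0.88, adjusted p = 0.0128), Ubac1 (0.84, adjusted p = 0.0125), Nusap1 (0.67, adjusted p = 0.037), Cdc25b (0.06) and Ube2s (-0.24) were not called. The rise of E2f2 was lost under 10 of 28 alternative settings.

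Many promoters of mitotic genes carry CCAAT boxes, which the factor NF-Y binds, and the letters TTTGAA, known as the cell cycle genes homology region. CCAAT stood within 250 bases before the start in 23 of the 32 tested mitosis genes with a promoter in the table (71.9%), in 14 of 25 replication genes (56%) and in 34.5% of all promoters. TTTGAA stood in 9 of the 32 (28.1%) against 16.3% of all promoters, each motif sought on both strands. Promoters of 4 of the genes with the largest rises are shown to place these boxes, as 200 bases ending at the base before the start (RefSeq, GRCm38.p6), with CCAAT or ATTGG in capitals. Ccnb2 lies at chr9:70421555-70421754 (minus strand), Top2a at chr11:99024190-99024389 (minus), Mki67 at chr7:135716380-135716579 (minus) and Cdca3 at chr6:124829976-124830175 (plus).
Ccnb2: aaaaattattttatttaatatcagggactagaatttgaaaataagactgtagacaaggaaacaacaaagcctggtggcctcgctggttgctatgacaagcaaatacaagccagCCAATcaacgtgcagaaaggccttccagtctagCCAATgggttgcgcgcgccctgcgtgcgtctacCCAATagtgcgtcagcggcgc
Top2a: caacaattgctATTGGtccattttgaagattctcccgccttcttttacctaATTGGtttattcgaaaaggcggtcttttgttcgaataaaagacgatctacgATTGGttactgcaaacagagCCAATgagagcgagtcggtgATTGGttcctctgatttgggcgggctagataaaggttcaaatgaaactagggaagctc
Mki67: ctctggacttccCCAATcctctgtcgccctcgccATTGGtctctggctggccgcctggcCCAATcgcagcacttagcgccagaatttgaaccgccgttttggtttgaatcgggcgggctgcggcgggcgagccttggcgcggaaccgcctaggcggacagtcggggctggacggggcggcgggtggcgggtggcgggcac
Cdca3: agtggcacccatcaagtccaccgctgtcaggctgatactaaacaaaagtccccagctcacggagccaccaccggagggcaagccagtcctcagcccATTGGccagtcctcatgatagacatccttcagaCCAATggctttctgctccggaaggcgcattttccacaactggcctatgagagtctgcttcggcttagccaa
The boxes of Ccnb2 lie 87, 54 and 21 bases before the start and those of Cdca3 104 and 71 bases before it, while Top2a holds 5 and Mki67 holds 3 in the stretch shown.

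**Figure D3:**
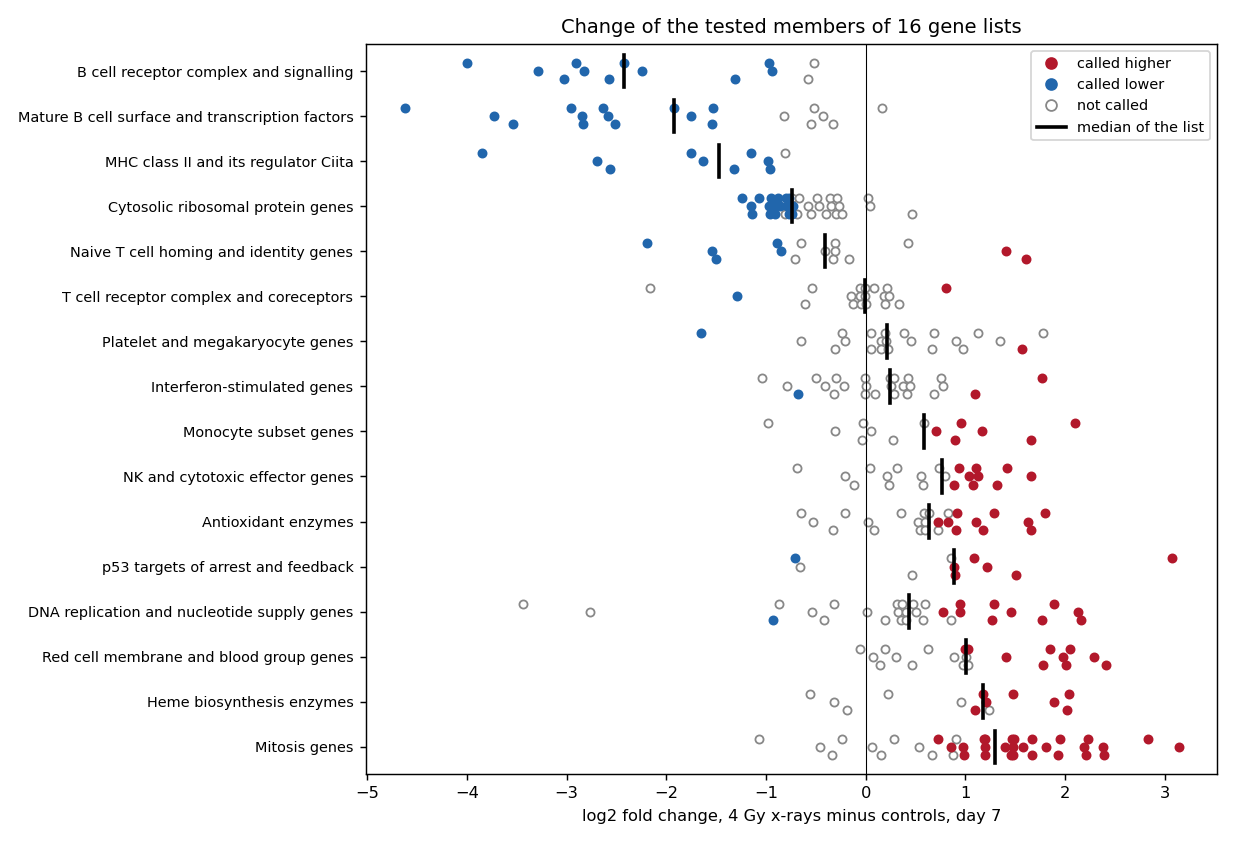
Log2 fold change (4 Gy minus controls, day 7) of the tested members of 16 gene lists. Each point is a gene, filled red where called higher, filled blue where called lower and open where not called; the black bar is the median of the list. B cell and MHC class II genes lie to the left with medians of -2.42, -1.92 and -1.48, ribosomal protein genes at -0.74, and heme and mitosis genes to the right with medians of 1.18 and 1.30.

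Of 21 genes of the red cell membrane and blood groups, 10 rose and none fell (median 1.00). Slc4a1, the anion exchanger band 3 and main protein of the red cell membrane, had levels of 7.45 to 8.72 (median 8.10) after 4 Gy and of 5.67 to 6.72 (median 6.55) in the controls, and rose by 1.78 (SE 0.27, adjusted p = 0.000304) without overlap. Rhd and Rhag, the Rhesus protein and its partner, rose by 2.41 and 2.05, Icam4 and Kel, which carry blood group antigens, by 2.01 and 1.85, and the membrane anchor Ank1 by 1.98. Epb42, another protein of the membrane skeleton, was at 0.98 and was not called (adjusted p = 0.00681).

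Of 13 erythroid transcription factors and related genes, 5 rose and 1 fell (median 0.57). Ahsp, a chaperone that holds free alpha globin, had levels of 7.98 to 9.18 (median 8.68) after 4 Gy and of 4.99 to 5.66 (median 5.33) in the controls, and rose by 3.29 (SE 0.22, adjusted p = 2.49e-07). The lowest irradiated mouse stood well above the highest control. Klf1, the erythroid activator of globin genes, had levels of -2.13 to -0.83 (median -1.48) and of -3.58 to -2.82 (median -3.11) and rose by 1.71 (SE 0.23, adjusted p = 0.000118). Zfpm1, the cofactor of Gata1, rose by 1.82 and the stem cell factor receptor Kit, above background on 5 of 6 control arrays, by 1.67, while Gata1 itself was at 0.57 (adjusted p = 0.0758), Epor at 1.02 (adjusted p = 0.0174) and Myb at -1.20 (adjusted p = 0.0107), none of them called. The fall was that of Bcl11a, which B cells share.

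Enzymes of heme synthesis rose in 7 of 13 cases and fell in none (median 1.18). Alad, which joins the first precursors of the porphyrin ring, had levels of 0.60 to 1.68 (median 1.33) after 4 Gy and of -0.82 to -0.24 (median -0.76) in the controls, and rose by 1.89 (SE 0.21, adjusted p = 3.24e-05); another probe of Alad gave 0.50. Urod, Cpox and Ppox, which act at later steps, rose by 2.04, 2.02 and 1.09, and the mitochondrial transporter Abcb10 by 1.20. Alas2, the erythroid enzyme of the first step, did not follow them. Its level was 8.98 to 10.16 (median 9.77) after 4 Gy and 9.80 to 10.56 (median 10.24) in the controls, and its log2 fold change of -0.56 (SE 0.21, adjusted p = 0.0518) was not called. None of 10 iron uptake and storage genes was called by limma. Tfrc, the transferrin receptor, was at 0.87 (adjusted p = 0.064), and Trf and Tfr2, at 2.37 and 3.23 with all mice, were at 0.73 and 0.20 without the mice with liver transcripts.

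Of 19 genes of ubiquitin conjugation and organelle clearance in reticulocytes, 5 rose and none fell (median 0.42), among them Rnf123 at 1.80, Trim10 at 1.74 and Yod1 at 1.67. The lowest member of the list was at -1.76 and was not called. In mice 1, 3 and 5 against the controls, 8 of the red cell membrane genes, 6 of the heme genes, and the same number of erythroid factors (5) and reticulocyte genes (5) rose.

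GATA factors direct erythroid transcription from sites that contain the letters AGATAA. Within 250 bases before the start, AGATAA stood in 5 of 14 tested red cell membrane genes with a promoter in the table (35.7%), in 1 of 10 heme enzyme genes (10%), in none of 8 B cell receptor genes and in 10.3% of all promoters, both strands searched. The promoters of Rhd, Kel and Icam4 are shown as 3 of the red cell membrane genes that rose and hold the letters, again as 200 bases before the start (RefSeq, GRCm38.p6) with AGATAA or its complement TTATCT in capitals. They lie at chr4:134864336-134864535 (plus), chr6:41704326-41704525 (minus) and chr9:21029232-21029431 (plus).
Rhd: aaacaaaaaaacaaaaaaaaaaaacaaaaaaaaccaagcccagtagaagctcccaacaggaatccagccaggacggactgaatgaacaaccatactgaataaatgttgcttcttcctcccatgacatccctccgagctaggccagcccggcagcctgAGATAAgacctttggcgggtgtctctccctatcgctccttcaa
Kel: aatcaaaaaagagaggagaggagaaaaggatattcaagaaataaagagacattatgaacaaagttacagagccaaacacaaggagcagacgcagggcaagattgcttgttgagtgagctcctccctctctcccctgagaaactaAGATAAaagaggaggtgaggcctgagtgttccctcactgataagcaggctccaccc
Icam4: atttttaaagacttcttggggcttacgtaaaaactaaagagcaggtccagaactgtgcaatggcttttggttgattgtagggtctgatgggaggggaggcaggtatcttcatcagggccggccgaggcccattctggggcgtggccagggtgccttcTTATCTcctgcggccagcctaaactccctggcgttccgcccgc
The letters begin 43, 56 and 43 bases before the start of Rhd, Kel and Icam4, which rose by 2.41, 1.85 and 2.01.

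Genes of cytosolic ribosomal proteins fell in 18 of 36 cases and rose in none (median -0.74). Rps27, a protein of the small subunit, had levels of 7.42 to 8.42 (median 8.14) after 4 Gy and of 9.15 to 9.53 (median 9.27) in the controls, and fell by 1.24 (SE 0.18, adjusted p = 0.000199) without overlap. Rpl5, Rps24 and Rpl22 fell by 1.15, 1.14 and 1.07, and Rpl29 was at 0.47 (not called). This count was sensitive to scaling: 2 of the genes fell with quantile normalization, 2 with spike-in centring, 8 without control mice 2 and 5 and 3 without the mice with liver transcripts, at a median of -0.59. Proteasome subunits rose in 3 of 11 cases, Psmd12 at 1.31, Psmd2 at 1.30 and Psmc5 at 1.10. All 31 listed subunits were detected, but most varied too little over the arrays to be tested.

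Enzymes that detoxify electrophiles and peroxides included the largest rise among all called genes. Gstt1, a glutathione transferase of the theta class, had levels of 4.67 to 5.89 (median 4.93) after 4 Gy and of -1.13 to 0.91 (median -0.53) in the controls, and rose by 5.56 (SE 0.32, adjusted p = 7.68e-08). Gstt1 is also a liver gene, and its rise was 5.33 without the mice with liver transcripts and 5.80 with those 3 mice alone. In all, 3 of 18 glutathione transferases rose (median 1.41), the others being Mgst3 at 2.32 and Gstp1 at 2.00. Gstp1 was at 1.09 without the mice with liver transcripts and at 2.91 with those alone. Gsta3 was at 3.67 with all mice (adjusted p = 0.0616), 0.63 without and 6.70 with those alone. The median of the list was 0.51 without them and 2.49 with them alone, where 10 of 18 rose.

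Of 25 antioxidant enzymes 10 rose and none fell (median 0.63). Nqo1, a quinone reductase controlled by the stress factor Nrf2, had levels of 0.82 to 1.84 (median 1.19) after 4 Gy and of -1.37 to 0.04 (median -0.45) in the controls, and rose by 1.80 (SE 0.27, adjusted p = 0.000271) without overlap. It stood at 1.87 without the mice with liver transcripts. The mitochondrial peroxiredoxin Prdx3 rose by 1.65, the glutathione-making enzymes Gss and Gclm by 1.63 and 1.28, Hmox1, which degrades heme, by 1.18, Gpx4 by 1.10, the mitochondrial superoxide dismutase Sod2 by 0.92 and thioredoxin Txn1 by 0.90. Without the 3 mice 6 of the 25 rose.

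Acute-phase genes rose in 4 of 6 cases (median 2.09). Saa3, a serum amyloid A that macrophages and other cells outside the liver make, had levels of 3.17 to 5.39 (median 4.45) after 4 Gy and of 0.10 to 3.31 (median 1.48) in the controls, which overlapped, and rose by 2.96 (SE 0.49, adjusted p = 0.00061). Saa1 rose by 2.24 and haptoglobin (Hp) by 1.45. Without the mice with liver transcripts Saa3 kept its size at 2.94 but was not called, Saa1 was at 1.89 and Hp at 1.04, and 1 of the 6 genes rose. None of 13 hepatocyte markers was called by limma with all mice, although their median was 3.95. Ahsg, fetuin of the liver, ranged from -4.28 to 8.29 (median 1.55) after 4 Gy and from -5.44 to -2.72 (median -3.39) in the controls (log2 fold change 5.61, SE 2.19, adjusted p = 0.0576). Its log2 fold change was 0.11 without the 3 mice and 11.10 with them alone. The median of the list was -0.24 without them and 8.65 with them alone. Heart muscle genes showed the reverse through the controls. Myl2, a light chain of cardiac myosin, ranged from -4.25 to -0.28 (median -2.85) after 4 Gy and from -2.76 to 5.99 (median -0.76) in the controls, and was not called (log2 fold change -3.41, adjusted p = 0.0852).

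The largest single changes lay partly within these lists and partly outside them. Pla2g2d, a secreted phospholipase A2 of lymphoid tissue, had levels of -4.09 to -3.32 (median -3.71) after 4 Gy and of 0.68 to 2.00 (median 1.65) in the controls, and fell by 5.23 (SE 0.22, adjusted p = 9.15e-09), more than any other called gene. Vpreb3, Fcer2a, H2-Eb2, Cr2, H2-Ob, Fcrl1 and Tnfrsf13c, given among the B cell and class II genes, also stood among the 15 largest falls. Il4i1, an amino acid oxidase of immune cells, and the sulfotransferase Chst3 fell by 3.66 and 3.64. The fall of 2900076A07Rik by 4.43 came with a wide spread in the controls, from 1.74 to 7.27 (median 6.51). Among the rises, Apol10a, of the apolipoprotein L family, had levels of 3.02 to 4.46 (median 3.97) after 4 Gy and of -0.91 to 0.14 (median -0.17) in the controls, and rose by 4.09 (SE 0.29, adjusted p = 4.91e-07). Its relative Apol11b rose by 3.11. Olr1, a receptor for oxidized lipoprotein, rose by 3.35, C1qtnf4 by 3.51, Marco, a scavenger receptor of macrophages, by 3.17, Pir by 3.16, A930009A15Rik by 3.27 and Tmem86b by 3.09. Olr1, A930009A15Rik and Tmem86b were above background on 5 of 6 control arrays and Col18a1 on 4. Col18a1, Reep6, Cfb and 1300017J02Rik rose by 4.90, 4.01, 3.50 and 3.52 with all mice, and by less without the mice with liver transcripts: Reep6 by 2.86 and 1300017J02Rik by 2.98, while Col18a1 at 3.11 and Cfb at 2.27 were no longer called.

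Of all genes tested 9.04% rose, and the lists that follow held 1 to 3 rises each. Interferon-stimulated genes rose in 2 of 25 cases, Oas3 at 1.76 and Herc6 at 1.09, and fell in 1, Mx2 at -0.68, which was not called without the mice with liver transcripts. Schlafen genes, regulators of lymphocyte and myeloid growth, rose in 3 of 6 cases, Slfn4 at 1.70, Slfn3 at 1.22 and Slfn1 at 1.01. Of the 6 genes 1 rose without the mice with liver transcripts, and 1 without control mice 2 and 5. Of 21 sterol enzymes only Nsdhl rose (1.57), and of 21 genes of fatty acid oxidation only Slc25a20 (0.97). These counts were 2 and 0 without the mice with liver transcripts.

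The dose comparison asked which of these levels differed between 4 Gy and 1 Gy mice of the same day, without the controls. Of 10836 genes 1032 (9.52%) were called, 434 higher (4.01%) and 598 lower (5.52%) after 4 Gy. After 1 Gy, 357 genes (3.29%) rose and 76 (0.701%) fell against the same 6 controls, so both effects share their controls and are given side by side only. B cell genes separated the doses. The log2 fold change of Cd79a was -1.15 after 1 Gy and -3.29 after 4 Gy, and the doses differed by -2.14 (adjusted p = 0.00012). For Fcer2a the difference was -3.85 (adjusted p = 4.75e-06) and for Vpreb3 -4.22 (adjusted p = 1.71e-06). In all, 9 of 13 receptor genes and 14 of 19 mature B cell genes were lower after 4 Gy than after 1 Gy, and with spike-in centring 1 and 5. NK and cytotoxic genes were higher after 4 Gy in 7 of 20 cases, Gzmb by 1.72 (adjusted p = 0.00155) and Cxcr3, among the chemokine receptors, by 1.52 (adjusted p = 0.00354), and none of these NK genes was called after 1 Gy. Of the p53 targets of arrest 7 of 10 were higher after 4 Gy, Cdkn1a by 2.09 (adjusted p = 0.000154) and Phlda3 by 1.00 (adjusted p = 0.00281). Without the mice with liver transcripts of both doses these counts were 3 and 3.

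Of 21 red cell membrane genes 13 rose after 1 Gy and 10 after 4 Gy. Slc4a1 was 1.66 above the controls after 1 Gy and 1.78 after 4 Gy, and the doses differed by 0.12 (adjusted p = 0.78). None of the 21 was higher after 4 Gy than after 1 Gy and 2 were lower. Of the 19 reticulocyte genes 7 rose after 1 Gy (median 0.87), and 1 was higher and 4 were lower after 4 Gy than after 1 Gy. Ahsp was 1.49 higher after 4 Gy (adjusted p = 0.00397) and Alas2 was 1.26 lower (adjusted p = 0.00303). Of the 38 mitosis genes 2 were higher and 1 lower, Mki67 among the former by 1.83 (adjusted p = 0.00211). That count depended on the mice, since 19 were higher without the mice with liver transcripts of both doses, and 25 with spike-in centring. The mean level of the 50 listed mitosis genes was 0.14 to 0.62 in the 4 Gy mice. It was 1.06 in 1 Gy mouse 5 and between -0.72 and -0.32 in the other 1 Gy mice. Mouse 3, the other 1 Gy mouse with liver transcripts, was at -0.72. Among the genes taken from the study's text, none differed between the doses with limma, while Ccna2 differed by 0.14 and E2f2 by -0.36. Gstt1 was at 0.59 after 1 Gy and 4.98 higher after 4 Gy (adjusted p = 0.000125). Ribosomal protein genes were lower after 4 Gy in 7 of 36 cases, and in none with quantile normalization or without the mice with liver transcripts. For Rps27 (-1.10) and Ccr7 (-1.17) the direction turned under spike-in centring, to 0.09 and 0.02, which also moved the median of all genes from -0.16 to 1.15 and the split to 5213 higher and 32 lower.

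The day comparison asked whether the effect of 4 Gy at day 7 differed from its effect at day 1, each against the controls of its day. It did so in 2422 genes (22.4%), 1345 with a higher (12.4%) and 1077 with a lower (9.94%) effect at day 7. With centring on the 75th percentile the split was 2188 to 659 and with spike-in centring 1260 to 560. At day 1, 3803 genes were called (35.1%), 1787 higher (16.5%) and 2016 lower (18.6%). The mean level of the 31 hepatocyte markers was 7.02 to 8.14 in the 4 Gy mice of day 1 and -1.48 to 6.05 in their controls. The day 1 mice were not split by liver transcripts, whose part in the day 1 effects and in the day comparison was not tested. Of the 980 genes higher at day 7, 292 were higher at day 1 as well (29.8%) and 113 were lower (11.5%). Of the 916 lower at day 7, 515 were already lower at day 1 (56.2%) and 23 were higher (2.51%).

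The lists divided by day. Slc4a1 had a log2 fold change of -4.40 at day 1 and 1.78 at day 7, a difference of 6.18 (adjusted p = 1.63e-07), and Ahsp of -3.52 and 3.29, a difference of 6.82 (adjusted p = 1.43e-08). In all, 12 of 21 red cell membrane genes fell at day 1 and 15 had a higher effect at day 7. Mki67 was at -1.41 at day 1 and Ccna2 at -3.00, with differences of 4.55 (adjusted p = 1.46e-07) and 4.57 (adjusted p = 1.79e-07), and 21 of 38 mitosis genes fell at day 1 and 29 had a higher effect at day 7. E2f2 went from -2.63 to 1.04 (adjusted p = 1.67e-06). Of the 21 genes taken from the study's text 18 fell at day 1 and 18 had a higher effect at day 7. Apol10a showed the largest such turn among the genes described, from -4.27 to 4.09, a difference of 8.37 (adjusted p = 3.28e-07).

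At day 1, 10 of 13 B cell receptor genes, 18 of 19 mature B cell genes and 10 of 10 class II genes fell. Fcer2a went from -6.56 to -4.62, a difference of 1.93 (adjusted p = 0.000281), and Cd74 from -3.39 to -0.98 (adjusted p = 1.8e-05). Of the class II genes 9 of 10 and of the mature B cell genes 11 of 19 had a higher effect at day 7, while of the 13 receptor genes 2 had a higher and 1 a lower effect. Of 19 T cell receptor genes 12 fell at day 1. Cd3e went from -1.56 to 0.21 (adjusted p = 0.00022), and 11 of the 19 had a higher effect at day 7. The p53 targets leaned the other way, with 3 of 10 lower at day 7 than at day 1 and none higher. Cdkn1a went from 4.15 to 3.07, a difference of -1.08 that was not called (adjusted p = 0.0222). Of the 20 NK genes only Ctsw was called in this comparison, with an effect 1.28 higher at day 7 (adjusted p = 0.00333).

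**Figure D4:**
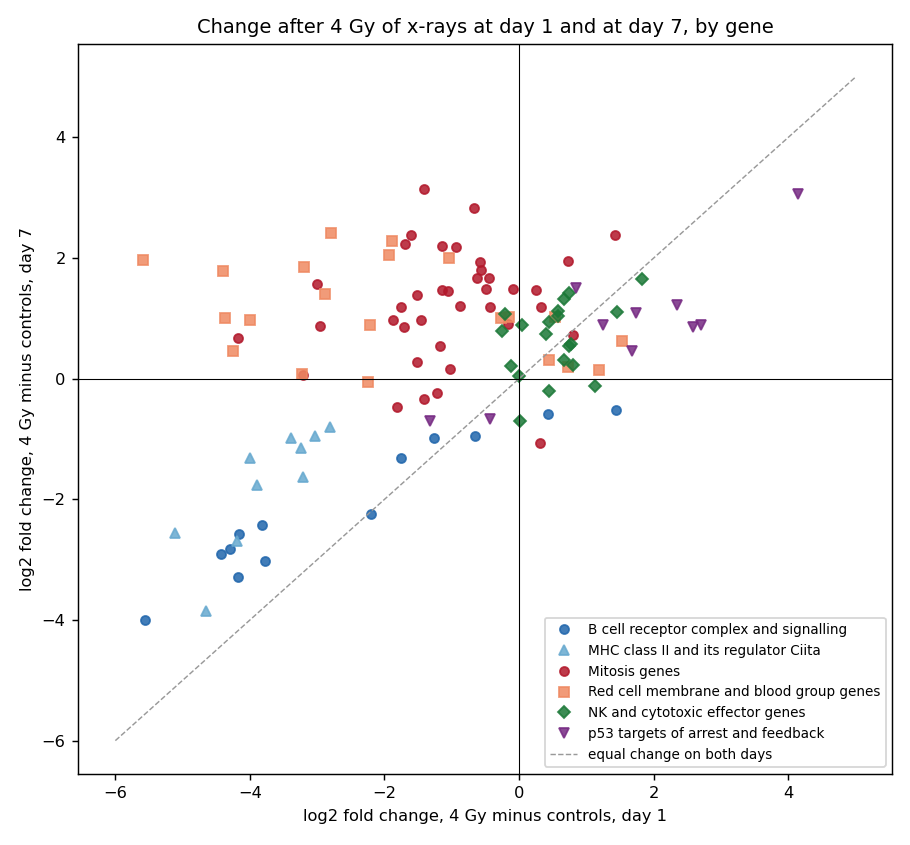
Log2 fold change of 4 Gy against the controls of the same day at day 1 (horizontal) and day 7 (vertical) for the tested genes of 6 lists, each point a gene; the dashed line marks equal change on both days. Most red cell membrane and mitosis genes lie in the upper left (lower at day 1, higher at day 7), B cell receptor and MHC class II genes in the lower left, and most NK genes and p53 targets in the upper right.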

How the data were processed

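Blood RNA of single mice was measured on 1-colour (Cy3) Agilent arrays, 1 array per mouse. The authors deposited background-corrected probe intensities from Agilent Feature Extraction 12.0.2. Values used here were log2 of these intensities, with control spots left out, centred on the median of the detected probes of each array. Probes flagged on 25% or more of the 56 arrays of days 1 and 7 were dropped (19808 kept), and a probe also had to lie 1.5-fold or more away from its median on 20% of arrays or more (12556 kept). The brightest probe stood for each gene, which left 10836 genes. Of the probes, 28741 were named by accession through RefSeq (1660 names changed) and 10688 by the array files. limma 3.58.1 in R 4.3.3 gave log2 fold changes with moderated SE, called at p below 0.001 and FDR (Benjamini-Hochberg) below 0.05, and was tested on simulated data. Groups came from the sample labels.

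The members and the 42 gene lists (853 genes, 579 tested) were chosen with earlier results of these data known. Genes were named where they belonged to the 15 largest rises or falls among called, bright genes whose groups did not overlap, to the genes the study named, or to the key members or the 3 largest rises and falls of a list. Some of these genes are not reported here. Promoters are those of RefSeq GRCm38.p6. Alternatives were other scalings (quantile, 75th percentile, spike-in), normexp background correction with an offset of 50, other filters, probe rules and tests. Further alternatives were blocks for replicate number, slide and scan date, and leaving out each mouse. Leaving out the mice with liver or heart transcripts was added after seeing the data. Arrays of day 3 and the table of processed values were not used here. The number of arrays limits the precision.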

Additional observations from a re-analysis of the deposited data

Results flagged for a closer look

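A single mouse stood apart from the other 5 of its group in 5 of 90 values tested (5.56%), where chance gives about 1 in 20. In the controls these were Ccr7 in mouse 5 (a log2 level of 4.72), E2f2 in mouse 6 (5.49), Alad in mouse 2 (-0.24), Gstt1 in mouse 5 (0.91) and the mean level of the lung markers in mouse 5 (-0.40). Control mice 2 and 5 also carried heart transcripts, whose part in these values was not tested.

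The effect of 4 Gy differed between day 7 and day 1, by the limma interaction term, in 18 of the 39 genes given with values for each group. The effect at day 7 was higher by 1.55 on the log2 scale for Cr2, 1.93 for Fcer2a, 2.67 for H2-Aa, 2.41 for Cd74, 1.77 for Cd3e, 2.00 for Cd8a, 1.93 for Ccr7, 2.72 for Gata3 and 2.08 for Pla2g2d. It was higher by 4.55 for Mki67, 3.92 for Top2a, 3.99 for Ccnb2, 3.63 for Uhrf1, 3.67 for E2f2 and 4.57 for Ccna2. Among red cell genes and Apol10a it was higher by 6.82 for Ahsp, 6.18 for Slc4a1 and 8.37 for Apol10a.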

How the results depend on the processing

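Values of single named genes were compared under the other settings, those added after seeing the data aside. In the comparison of 4 Gy with controls 5227 kept their side of the threshold, 380 were no longer called and 65 became called. None changed sign among genes called with or without the setting. Here and below, a change of sign was not counted for genes called in neither fit. The number of lower genes was 342 with spike-in centring. With normexp 350 genes were called, 133 higher and 217 lower. Without 4 Gy mice 2, 4 and 6 it was 1017 (590 and 427), without control mice 2 and 5 as well 949 (526 and 423), and without 4 Gy mice 1, 3 and 5 592 genes were lower. Leaving out each mouse in turn gave 1473 to 2015 calls, 787 to 996 higher and 682 to 1067 lower. In the dose comparison spike-in centring gave 5245 calls (5213 and 32) and normexp 371 (23 and 348). Without the mice with liver transcripts of both doses 658 genes were called, 184 higher and 474 lower. Leaving out each mouse gave 657 to 1316 calls, 323 to 551 higher and 328 to 765 lower. Fewer calls by more than 1.5 times came without 1 Gy mouse 2 (657) or mouse 4 (686), and fewer lower genes without 1 Gy mice 1 (328), 2 (329) or 4 (356) or 4 Gy mouse 2 (385). Under spike-in centring the dose difference changed sign for Cd22 (0.0642), Ccr7 (0.0161), Dapl1 (0.0130), Bmf (0.0503), Rps27 (0.0876) and Rps24 (0.23). In the day comparison the 75th percentile gave 2188 higher and 659 lower, spike-in centring 560 lower, no detection filter 1898 lower and normexp 335 calls (162 and 173), under which Pla2g2d changed sign (-0.25). Leaving out each mouse gave 2001 to 2684 calls, 1119 to 1424 higher and 882 to 1260 lower. The causes were not tested.

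Mice with the same number did not deviate together (correlations from -0.19 to 0.16 between 4 Gy mice and controls), so the numbers do not pair them. With the replicate number as a block 1380 genes were called against controls (798 higher, 582 lower; 1300 shared with the fit without the block), 424 between doses (179 and 245) and 2193 between days. With slide as a random block 1540 genes were called against controls.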
